A study of Mus musculus with 6 samples.

Results

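The genes examined here are 8 enzymes of serine synthesis and of the folate cycle, which carries one-carbon units, in MC3T3-E1 cells, a mouse pre-osteoblast line. They were taken by symbol (Phgdh, Psat1, Psph, Shmt2, Mthfd1, Mthfd2, Mthfd1l and Aldh1l2), and all 8 were found among the 54532 genes of the deposited table. The 3 control samples were cells grown in osteogenic medium, labelled control or NC, and the 3 treated samples were cells in the same medium that also received metformin, a biguanide that lowers blood glucose. Both groups were therefore under osteogenic induction, for 3 days, and the dose of metformin was 0.2 mM. The cells are 1 established line, and the study calls the samples of a group biological replicates without saying how the cultures were separated, so that p-values measure the spread between these samples. RNA sequencing of total RNA gave FPKM values, in which reads are divided by gene length and by library size.

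Cells make serine from the glycolytic intermediate 3-phosphoglycerate through Phgdh, Psat1 and Psph in turn. Serine hydroxymethyltransferase then passes a carbon from serine to tetrahydrofolate and leaves glycine, and the folate-bound carbon is oxidised to formate in mitochondria and used in the cytosol for purines, thymidylate and methionine. In osteoblasts, glycine and proline are also needed in large amounts for collagen. Several of these genes are known targets of the transcription factor ATF4, and the pathway is active in dividing cells.

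With metformin, 7 of the 8 genes rose, between 1.65-fold and 2.19-fold by ratio of mean FPKM, and none fell (adjusted p-value under 0.05 by limma with an intensity trend on log2(FPKM + 1), Benjamini-Hochberg adjustment over all 12681 tested genes). The exception was Phgdh, the enzyme that commits 3-phosphoglycerate to serine. For comparison, 13.2% of all tested genes rose and 9.28% fell. All 8 genes passed the filter on low values, with 469 to 6323 reads behind each value. In all 8, Phgdh included, every metformin sample lay above every control sample, which was so for 23.6% of all tested genes. The median log2 fold change of the 8 genes was 0.79, against 0.005 over all tested genes. The added 1 shrinks the log2 fold changes of genes with low FPKM.

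The libraries held 18399861 to 20652437 reads in the controls and 19256672 to 22111790 with metformin. Control replicate 1 stood apart from the other controls, with correlations across genes of 0.96 and 0.952 against 0.988 between the other two, and its deviation followed the GC content of the gene (Spearman correlation -0.668 across genes, which are not independent replicates). The deviations of control replicates 2 and 3 followed GC content the other way (0.411 and 0.635). All were taken from the mean of the 3 controls, so that a trend in 1 control forces opposite trends in the others. With all samples, 1670 of all tested genes rose and 1177 fell. Without control replicate 1, 2974 rose (23.5%) and 2587 fell (20.4%), and of the 8 genes again 7 were higher and 0 were lower. Correcting each library for GC content gave 2062 higher (16.3%) and 2434 lower (19.2%) over all genes, and again 7 higher and 0 lower of the 8. Osteoblast genes were present. Col1a1 was at 927 to 1585 FPKM in the controls and 2366 to 2576 FPKM with metformin. Ibsp was at 664 to 964 FPKM in the controls and 260 to 269 FPKM with metformin. Alpl (2.44 to 3.84 FPKM over all samples) and Bglap (2.22 to 12.3 FPKM) were much lower. Of 8 osteoblast markers, 2 rose, Col1a1 and Col1a2 (log2 fold change 0.93 and 0.57), and 2 fell, Spp1 and Ibsp (-1.50 and -1.60). Lists of markers of other cell types held 6 genes each. Of these, Adipoq, Plin1, Adgre1, Ptprc, Myod1 and Myog had at most 6 reads in any sample. Pparg and Acta1 had up to 13 reads, and the adipocyte gene Fabp4 was at 1.65 to 2.95 FPKM. The muscle gene Des had 82 to 177 reads, with every metformin sample above every control. Its mean was 1.55 FPKM in the controls and 2.27 FPKM with metformin (log2 fold change 0.37). Des did not pass the test (adjusted p-value of 0.0771 by limma), but was called higher with the correction for GC content. It held most of the summed level of the muscle genes given below. The chondrocyte genes Sox9 (19.9 to 28.1 FPKM) and Col2a1 (6.44 to 11.9 FPKM) were expressed in both groups and Acan was near 0. Matn3, below the filter, had 4 to 13 reads in the controls and 26 to 36 reads with metformin. Of the macrophage genes, Lyz2 was at 13.1 to 24.0 FPKM in the controls and 25.9 to 29.6 FPKM with metformin without passing the test (adjusted p-value of 0.0771), and Cd68 fell (log2 fold change -0.49, adjusted p-value of 0.0102). The summed level of the 6 adipocyte genes was 1.76 to 3.18 FPKM in the controls and 2.10 to 2.45 FPKM with metformin, that of the 6 chondrocyte genes was 27.6 to 41.6 FPKM and 29.9 to 32.4 FPKM, that of the 6 macrophage genes was 15.4 to 26.0 FPKM and 27.1 to 31.0 FPKM, and that of 6 muscle genes was 1.2 to 2.02 FPKM and 2.33 to 2.80 FPKM. The part of these lists in the results was not tested. In bulk samples, a change in the number of cells of a type and a change in RNA per cell cannot be told apart.

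Promoter windows from RefSeq (GRCm38.p6), running from 250 bases before to 50 bases after the gene's start, were given for 7 of the 8 genes, with 8 windows in all. They are shown for Mthfd1l, which had the largest log2 fold change, for Psph and Mthfd2 as a serine synthesis and a mitochondrial enzyme that rose, and for Phgdh, which was not called. Capitals mark the CCAAT box (CCAAT) and the GC box (GGGCGG) on either strand, so that ATTGG and CCGCCC are the same motifs read on the other strand. These 2 motifs were chosen after the values had been seen.
Mthfd1l, chr10:3972825-3973124 (plus strand): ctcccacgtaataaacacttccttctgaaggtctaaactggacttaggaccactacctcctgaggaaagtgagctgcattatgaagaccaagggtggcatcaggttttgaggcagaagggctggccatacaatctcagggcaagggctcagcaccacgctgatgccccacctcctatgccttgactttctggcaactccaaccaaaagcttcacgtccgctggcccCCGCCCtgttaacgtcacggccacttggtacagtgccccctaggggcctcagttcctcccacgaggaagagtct
Psph, chr5:129787204-129787503 (minus strand): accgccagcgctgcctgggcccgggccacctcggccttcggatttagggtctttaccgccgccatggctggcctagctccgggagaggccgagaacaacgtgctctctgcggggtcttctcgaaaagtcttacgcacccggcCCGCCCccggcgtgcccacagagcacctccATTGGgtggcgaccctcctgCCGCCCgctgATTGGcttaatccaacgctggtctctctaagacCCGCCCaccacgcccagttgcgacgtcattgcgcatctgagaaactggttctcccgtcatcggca
Mthfd2, chr6:83317555-83317854 (minus strand): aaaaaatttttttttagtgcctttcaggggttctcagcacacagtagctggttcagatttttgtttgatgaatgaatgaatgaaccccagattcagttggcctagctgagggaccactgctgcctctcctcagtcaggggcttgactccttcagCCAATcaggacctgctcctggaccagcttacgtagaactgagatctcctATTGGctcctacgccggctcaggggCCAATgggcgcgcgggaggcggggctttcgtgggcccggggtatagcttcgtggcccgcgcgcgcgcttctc
Phgdh, chr3:98339920-98340219 (minus strand): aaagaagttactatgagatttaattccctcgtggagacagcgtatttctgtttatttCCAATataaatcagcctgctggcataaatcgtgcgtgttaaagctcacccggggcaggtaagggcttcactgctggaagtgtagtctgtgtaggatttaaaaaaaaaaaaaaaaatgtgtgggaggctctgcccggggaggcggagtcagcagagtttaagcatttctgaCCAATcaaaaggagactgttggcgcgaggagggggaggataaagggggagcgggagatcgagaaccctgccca

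CCAAT was found in 5 of the 8 windows, those of 5 of the 7 genes, and in 37.4% of all 32851 promoter windows. GGGCGG was found in 4 of the 8 windows, those of 4 of the 7 genes, and in 35.7% of all windows. Searches on both strands for TGATGNAA, the composite element of ATF4 and C/EBP (3.97% of all windows), for the E-box CACGTG (7.15%) and for the E2F-like TTTCCCGC (1.07%) and TTTGGCGC (0.514%) found none in the windows of the 7 genes, which says only that these letters are not in these windows. The 4 windows shown also differed in composition. The window of Psph was 65.0% G and C with 28 CpG dinucleotides, that of Phgdh 47.7% with 11, that of Mthfd2 55.7% with 15 and that of Mthfd1l 55.3% with 8, beside medians of 52.7% and 7 over all windows. The windows of Mthfd2 (83317555 to 83317854) and Psat1 (15924573 to 15924872 and 15925010 to 15925309) lie inside the genes as the table gives them. On the minus strand, the table has these genes begin at 83325908 (Mthfd2) and 15947337 (Psat1).

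Phgdh encodes phosphoglycerate dehydrogenase, the first enzyme of serine synthesis, and lies on chromosome 3 (98313170 to 98339990, minus strand, GRCm38). It had 80.2, 109 and 109 FPKM in the controls and 120, 117 and 113 FPKM with metformin. Control replicate 1 was the low sample, and the metformin samples exceeded the highest control by 1.03-fold at the least. The means were 99.7 ± 16.9 and 116.6 ± 3.36 FPKM (SD, n = 3 each). The log2 fold change was 0.24 with a 95% confidence interval of -0.09 to 0.57 (adjusted p-value of 0.268 by limma), so that the difference did not pass the test, while a rise of up to 0.57 on the log2 scale lies inside the interval. Without control replicate 1 the log2 fold change was 0.09 (adjusted p-value of 0.23). Transcripts of 9 other genes matched that of Phgdh at 95.3% to 98.7% identity over at least 200 bases. Reads were listed for 5 of them, with at most 104 in any sample against 3642 to 6323 for Phgdh, and how reads that fit several copies were counted is not given in the sources used here.

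**Figure D1:**
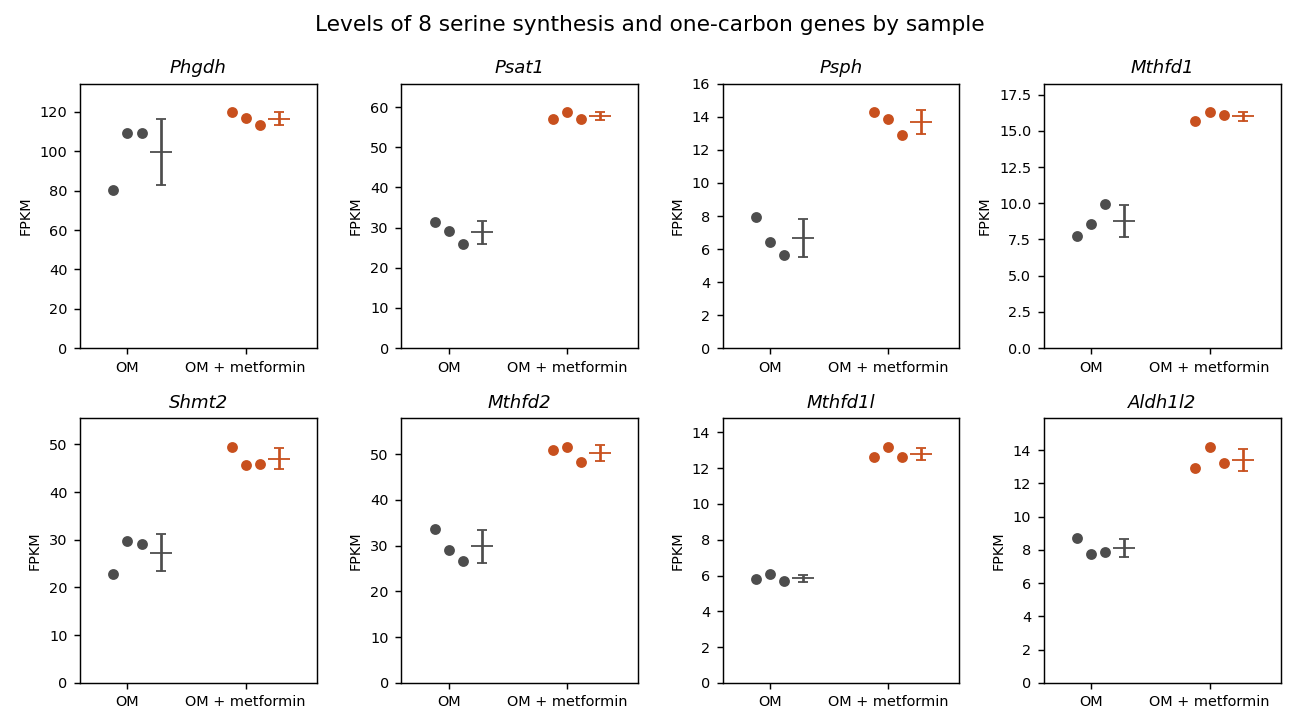
FPKM of the 8 genes in each sample (points, replicates 1 to 3 from left to right) in osteogenic medium (OM, grey) and in osteogenic medium with metformin (orange), with the mean and SD of 3 samples beside them. Every metformin point lies above every control point in all 8 panels, by the least in Phgdh, where control replicate 1 is at 80.2 FPKM and the other controls are at 109 FPKM.

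Psat1 encodes phosphoserine aminotransferase, the second enzyme, on chromosome 19 (15904678 to 15947337, minus strand). Its level was 31.4, 29.1 and 25.8 FPKM in the controls and 57.1, 58.8 and 57.1 FPKM with metformin. The groups were far apart, with the lowest metformin sample 1.82-fold above the highest control. The mean rose from 28.8 ± 2.84 to 57.7 ± 0.983 FPKM (SD, n = 3 each), a log2 fold change of 0.98 ± 0.10 (SE; adjusted p-value of 0.000779 by limma).

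Psph encodes phosphoserine phosphatase, which releases free serine, on chromosome 5 (129765558 to 129787449, minus strand). It was at 7.92, 6.40 and 5.66 FPKM in the controls and at 14.3, 13.9 and 12.9 FPKM with metformin, with no overlap between the groups. Its log2 fold change was 0.95 ± 0.12 (SE; adjusted p-value of 0.00244 by limma). The gene overlaps Cct6a on the opposite strand, with 255 bases of transcript in common. Reads from the shared bases cannot be told apart without strand, and Cct6a itself had 3743 to 5395 reads and a log2 fold change of 0.09 (adjusted p-value of 0.751).

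Along the serine route the controls thus held Phgdh above Psat1 and Psat1 above Psph, and the ratios of the later enzymes to Phgdh were higher in every metformin sample than in every control. The FPKM of Psat1 was 0.392, 0.266 and 0.236 of that of Phgdh in the controls and 0.476, 0.504 and 0.504 with metformin. The FPKM of Psph was 0.0987, 0.0585 and 0.0517 of that of Phgdh in the controls and 0.119, 0.119 and 0.114 with metformin. A two-sided exact permutation test gave p = 0.10 for each, which is the smallest p that 3 samples against 3 allow, and 0.125 after adjustment over the 5 ratios examined.

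Mthfd1l had the largest log2 fold change of the 8 genes. It encodes the mitochondrial formyltetrahydrofolate synthetase, which releases formate, and lies on chromosome 10 (3973118 to 4167081, plus strand). Its level was 5.79, 6.06 and 5.68 FPKM in the controls and 12.6, 13.2 and 12.6 FPKM with metformin. Samples within each group were close, the lowest metformin sample was 2.07-fold above the highest control, and the log2 fold change was 1.01 ± 0.07 (SE; adjusted p-value of 0.000262 by limma).

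Shmt2, the mitochondrial serine hydroxymethyltransferase, on chromosome 10 (127517123 to 127522444, minus strand), was at 22.9, 29.8 and 29.2 FPKM in the controls and at 49.5, 45.7 and 45.9 FPKM with metformin. As in Phgdh, control replicate 1 was the low control, and the longest transcripts of these 2 genes have the highest GC contents of the 8 (57.4% in Shmt2 and 57.2% in Phgdh). The log2 fold change of Shmt2 was 0.77 ± 0.12 (SE; adjusted p-value of 0.00544 by limma) and 0.65 without control replicate 1 (adjusted p-value of 0.000331).

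Mthfd2 encodes the mitochondrial methylenetetrahydrofolate dehydrogenase and cyclohydrolase, on chromosome 6 (83305691 to 83325908, minus strand). It had 33.7, 29.1 and 26.6 FPKM in the controls and 50.9, 51.6 and 48.2 FPKM with metformin. Control replicate 1 was here the highest control and still lay below all metformin samples. The log2 fold change was 0.74 ± 0.11 (SE; adjusted p-value of 0.00399 by limma).

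Aldh1l2, the mitochondrial formyltetrahydrofolate dehydrogenase, which yields NADPH and carbon dioxide, lies on chromosome 10 (83487450 to 83534140, minus strand). Its level was 8.74, 7.75 and 7.86 FPKM in the controls and 12.9, 14.2 and 13.2 FPKM with metformin. It had the smallest fold of the 7 genes that rose, with a log2 fold change of 0.66 ± 0.08 (SE; adjusted p-value of 0.00236 by limma). D10Wsu102e overlaps it on the opposite strand with 1056 bases of transcript in common, and had 853 to 1020 reads against 1159 to 2321 for Aldh1l2.

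Mthfd1, the cytosolic enzyme that joins the synthetase, cyclohydrolase and dehydrogenase activities in 1 protein, lies on chromosome 12 (76255298 to 76319803, plus strand). It was at 7.77, 8.54 and 9.93 FPKM in the controls and at 15.7, 16.3 and 16.1 FPKM with metformin, with no overlap. The log2 fold change was 0.81 ± 0.10 (SE; adjusted p-value of 0.00216 by limma). The ratio of the mitochondrial synthetase to this cytosolic enzyme, Mthfd1l over Mthfd1, was 0.746, 0.710 and 0.572 in the controls and 0.801, 0.806 and 0.786 with metformin (log2 difference 0.25, exact permutation p = 0.10, adjusted 0.125).

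Compared per length within a group, Phgdh was the highest of the 8 in both groups and its samples did not overlap with the next gene. In the controls Mthfd2 (29.8 ± 3.61 FPKM), Psat1 (28.8 ± 2.84 FPKM) and Shmt2 (27.3 ± 3.84 FPKM) followed with overlapping samples. Mthfd1 (8.75 ± 1.10 FPKM), Aldh1l2 (8.12 ± 0.540 FPKM), Psph (6.66 ± 1.15 FPKM) and Mthfd1l (5.84 ± 0.198 FPKM) formed a lower set in which each overlapped with the next. With metformin, Psat1 (57.7 ± 0.983 FPKM) stood above Mthfd2 (50.2 ± 1.81 FPKM) without overlap, and Mthfd2 overlapped with Shmt2 (47.0 ± 2.14 FPKM). Mthfd1 (16.0 ± 0.328 FPKM) headed the lower set, followed by Psph (13.7 ± 0.729 FPKM), Aldh1l2 (13.4 ± 0.678 FPKM) and Mthfd1l (12.8 ± 0.334 FPKM), the last 3 with overlap between neighbours. The summed level of the 8 genes was 198.5 to 226.3 FPKM in the controls and 319.1 to 332.9 FPKM with metformin.

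**Figure D2:**
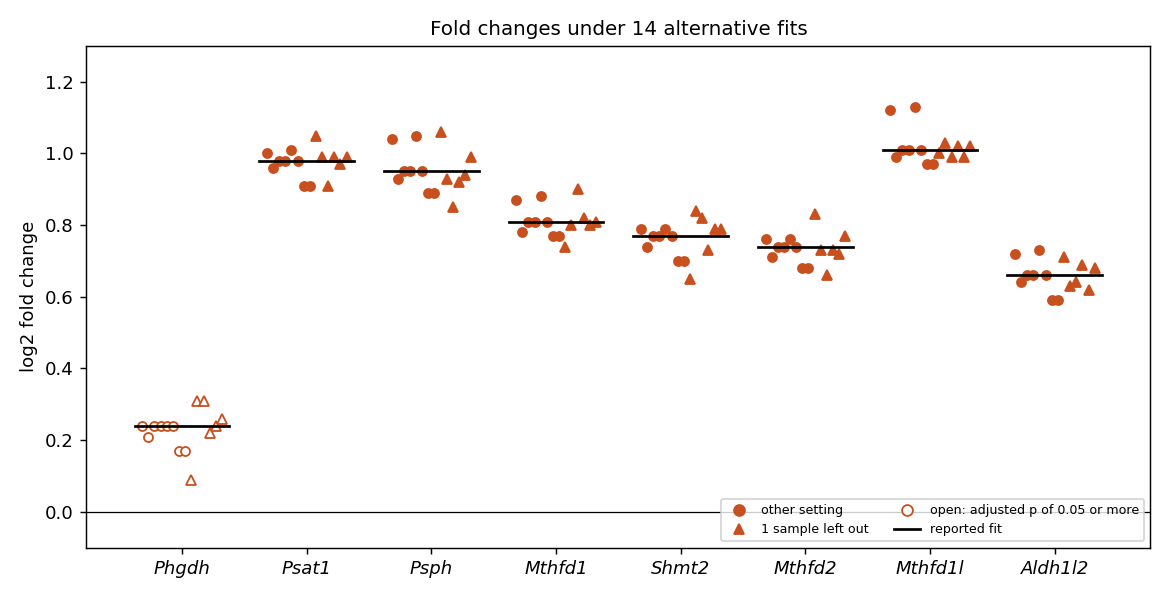
Log2 fold change of each of the 8 genes (metformin over osteogenic medium) in the reported fit (black line) and in 14 alternatives, circles for other settings and triangles for fits without 1 sample. Filled marks have an adjusted p-value under 0.05, and Phgdh, between 0.09 and 0.31, has only open marks, while the other 7 have only filled marks between 0.59 and 1.13.

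Close relatives of these enzymes and the mitochondrial folate carrier were examined beside them. Shmt1, the cytosolic serine hydroxymethyltransferase, was at 2.33, 1.90 and 2.21 FPKM in the controls and at 3.15, 3.14 and 2.70 FPKM with metformin (log2 fold change 0.35 ± 0.10, adjusted p-value of 0.0467 by limma). Its call was lost without control replicate 2 or 3 or any 1 of the metformin samples (log2 fold change 0.29 to 0.40, adjusted p-value of 0.0766 to 0.178) and without the filter on low values (adjusted p-value of 0.126), and the gene overlaps Smcr8 on the opposite strand. Mthfd2l, a second mitochondrial dehydrogenase, had 2.90, 2.48 and 2.26 FPKM in the controls and 2.65, 2.73 and 2.61 FPKM with metformin, with overlapping groups and a log2 fold change of 0.05 (95% confidence interval -0.18 to 0.28). Aldh1l1, the cytosolic counterpart of Aldh1l2, was below the filter, at 0.0676 to 0.169 FPKM in the controls and 0.0406 to 0.0568 FPKM with metformin. Slc25a32, the carrier of folate into mitochondria, had a log2 fold change of 0.03 (95% confidence interval -0.23 to 0.29).

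The difference between relatives was examined in the ratios. Mthfd2 was 11.6, 11.7 and 11.8 times as high as Mthfd2l in the controls and 19.2, 18.9 and 18.4 times as high with metformin (log2 difference 0.69, exact permutation p = 0.10, adjusted 0.125). The ratio of Shmt2 to Shmt1 was 9.84, 15.7 and 13.2 in the controls and 15.7, 14.6 and 17.0 with metformin. These groups overlapped (log2 difference 0.31, exact permutation p = 0.20, adjusted 0.20), and the ratio in control replicate 1 was the lowest of all 6.

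Around the 8 genes, 56 others were listed by role as glycine and serine users, other folate enzymes, carriers, methionine cycle enzymes and purine synthesis enzymes. Of these, 42 passed the filter on low values, 7 rose and 2 fell, and their median log2 fold change was 0.06. In the same fit 13.2% of all tested genes rose and 9.28% fell, and the counts of the single lists below stand beside these shares. Without control replicate 1, of 41 tested, 12 rose and 6 fell, and with the correction for GC content 7 rose and 8 fell, beside the shares of 23.5% and 20.4% and of 16.3% and 19.2% of all tested genes in those fits. Of 8 tested genes of glycine and serine use, 1 rose, Shmt1, and 0 fell, and the glycine cleavage genes Gcsh (0.32, adjusted p-value of 0.168), Dld (-0.36, adjusted p-value of 0.158) and Amt (-0.41, adjusted p-value of 0.173) did not pass the test by their log2 fold changes.

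Among 8 tested folate enzymes outside the members, 2 rose and 0 fell. Tyms, thymidylate synthase, which uses a folate-bound carbon to make thymidylate, was at 3.08, 1.97 and 1.99 FPKM in the controls and at 8.67, 8.77 and 8.44 FPKM with metformin. The groups were far apart, and the log2 fold change of 1.54 ± 0.14 (SE; adjusted p-value of 0.000515 by limma) exceeded those of all 8 members.

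Of 8 tested carriers, 1 rose and 1 fell. Slc1a4, a plasma membrane carrier of serine and other neutral amino acids, rose from 23.7 ± 1.85 to 29.8 ± 1.05 FPKM (SD, n = 3 each; log2 fold change 0.32, adjusted p-value of 0.0428 by limma). Sfxn2, a mitochondrial carrier of the sideroflexin family, fell from 8.16 ± 0.178 to 6.44 ± 0.329 FPKM (log2 fold change -0.30, adjusted p-value of 0.0321). Both calls were lost without control replicate 2 or 3 or any 1 of the metformin samples, with adjusted p-values of 0.0836 to 0.178 for Slc1a4 (log2 fold change 0.28 to 0.35) and 0.0507 to 0.151 for Sfxn2 (-0.34 to -0.28). The call of Slc1a4 was also lost with the correction for GC content (0.28, adjusted p-value of 0.073) and without the filter on low values (0.32, adjusted p-value of 0.0507). Sfxn1, the mitochondrial serine carrier, had a log2 fold change of 0.21 and did not pass the test (adjusted p-value of 0.189).

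Of 8 tested methionine cycle genes, 1 rose and 1 fell. Ahcy, which clears S-adenosylhomocysteine, rose from 18.9 ± 0.833 to 29.0 ± 0.856 FPKM (log2 fold change 0.59 ± 0.08, adjusted p-value of 0.0029 by limma), and near-identical transcripts of Gm4737 and Gm9826 held at most 275 reads against 992 to 1807 for Ahcy. Mat2b, the regulatory subunit of methionine adenosyltransferase, fell from 12.1 ± 0.741 to 9.50 ± 0.359 FPKM (log2 fold change -0.32, adjusted p-value of 0.0332), a call that was lost without control replicate 2 or any 1 of the metformin samples (-0.35 to -0.30, adjusted p-value of 0.0946 to 0.151). Of 10 tested purine synthesis genes, 2 rose and 0 fell. Pfas, an enzyme of the de novo route, rose from 2.96 ± 0.310 to 4.86 ± 0.237 FPKM (log2 fold change 0.57 ± 0.09, adjusted p-value of 0.00618), while Gart and Atic, the enzymes of that route that use formyltetrahydrofolate, had log2 fold changes of 0.13 and 0.10 and did not pass the test. Impdh2, the enzyme that leads to guanine nucleotides, rose from 22.5 ± 0.526 to 29.6 ± 0.591 FPKM (log2 fold change 0.38, adjusted p-value of 0.0126). Without any 1 of the metformin samples its adjusted p-value was 0.0654 to 0.0852 (log2 fold change 0.37 to 0.40), and the copy Impdh2-ps, 99.7% identical over 1545 bases, held 328 to 520 reads.

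**Figure D3:**
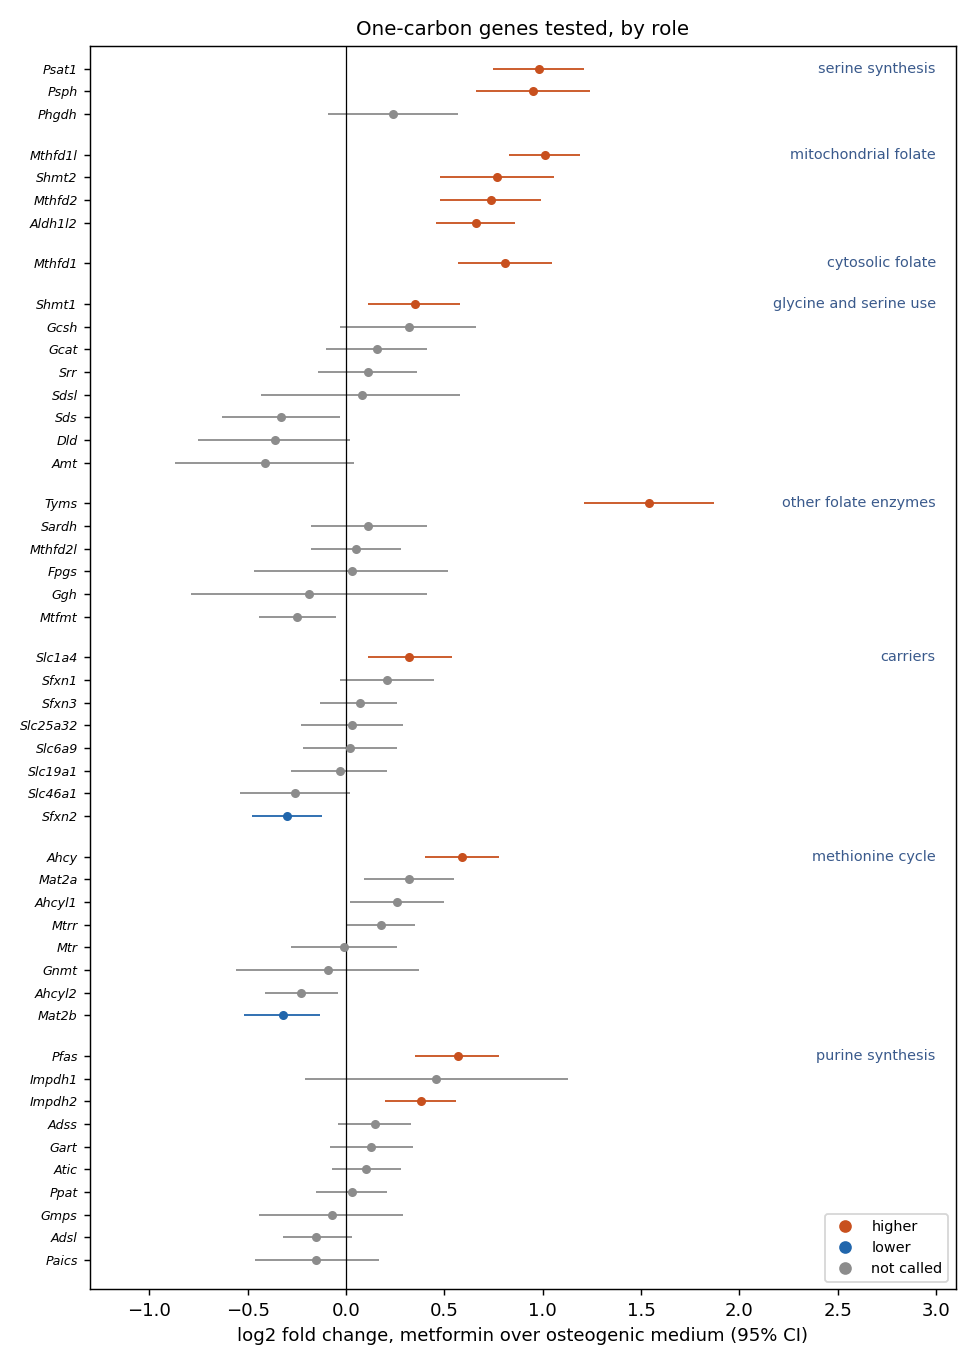
Log2 fold change (metformin over osteogenic medium, log2(FPKM + 1) scale) with its 95% confidence interval for the 8 members and 40 of the 42 tested genes around them, ordered by role. Orange genes rose, blue genes fell and grey genes were not called. The 7 called members lie between 0.66 and 1.01, and among the other genes drawn Tyms (1.54) lies above them.

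Genes of the ATF4 programme, which responds to amino acid shortage and other stress, did not move one way. The list does not include the 8 members. Of 17 tested, 3 rose and 4 fell, beside 13.2% and 9.28% of all tested genes, with a median log2 fold change of -0.10. Without control replicate 1, 4 rose and 8 fell, where 23.5% and 20.4% of all tested genes rose and fell. With all samples, the called genes not described below were Asns, which rose (0.45), and Atf3 (-1.06) and Vldlr (-0.84), which fell. Chac1, a glutathione-degrading enzyme, was at 5.19, 10.9 and 10.7 FPKM in the controls and at 27.6, 29.0 and 25.8 FPKM with metformin (log2 fold change 1.58 ± 0.25, adjusted p-value of 0.006 by limma). Pck2, the mitochondrial phosphoenolpyruvate carboxykinase, rose from 6.50 ± 1.16 to 10.9 ± 0.303 FPKM (log2 fold change 0.68, adjusted p-value of 0.0103), which was lost without metformin replicate 2 or 3 (adjusted p-value of 0.0509 and 0.0527, log2 fold change 0.68 and 0.66). Ddit3, a stress transcription factor also called CHOP, was at 23.8, 35.7 and 46.6 FPKM in the controls and at 14.2, 14.5 and 15.9 FPKM with metformin (log2 fold change -1.15, adjusted p-value of 0.0129). This call was lost without control replicate 2 or metformin replicate 1 or 2 (-1.13 to -1.12, adjusted p-value of 0.0513 to 0.0581). Nupr1, a stress-induced nuclear protein, was at 13.9, 34.6 and 33.5 FPKM in the controls and at 10.4, 10.3 and 10.1 FPKM with metformin (log2 fold change -1.23, adjusted p-value of 0.038), and its call was lost without control replicate 2 or 3 or any 1 of the metformin samples (-1.24 to -1.01, adjusted p-value of 0.0993 to 0.118) and without the filter on low values (adjusted p-value of 0.0944). Atf4 itself, which the rule did not name and which was added after its values were seen, was at 68.7, 141 and 142 FPKM in the controls and at 144, 149 and 149 FPKM with metformin. Control replicate 1 was the low sample, and the log2 fold change of 0.40 had a 95% confidence interval of -0.26 to 1.07. Without that sample it was 0.06 (adjusted p-value of 0.411).

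All 12 proliferation genes rose, with a median log2 fold change of 2.02 and a range of 1.16 to 2.61, beside 0.79 for the 8 members. Top2a, the topoisomerase of dividing cells, was at 6.67, 4.59 and 3.63 FPKM in the controls and at 34.2, 36.0 and 33.9 FPKM with metformin (log2 fold change 2.61 ± 0.18, adjusted p-value of 0.00021 by limma). Ccna2, the cyclin of S and G2 phases, was at 6.05, 4.87 and 3.38 FPKM in the controls and at 31.5, 30.6 and 30.4 FPKM with metformin (log2 fold change 2.49 ± 0.17, adjusted p-value of 0.000206). Exosc9 overlaps Ccna2 on the opposite strand with 431 bases of transcript in common, and had 414 to 588 reads and a log2 fold change of 0.12. The summed level of the 12 genes was 104.8 to 137.4 FPKM in the controls and 414.4 to 430.0 FPKM with metformin. Their part in the rise of the 7 members was not tested.

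**Figure D4:**
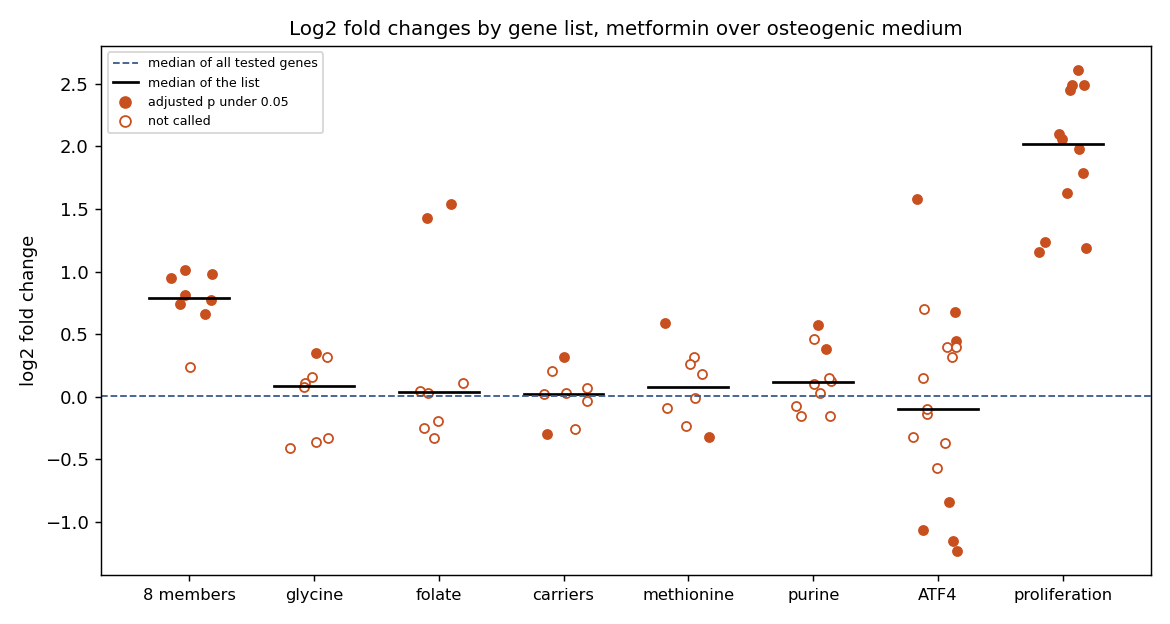
Log2 fold changes (metformin over osteogenic medium) of tested genes, with 1 point a gene, for the 8 members, the 5 lists around them, ATF4 genes and proliferation genes. Filled points passed the test, black lines are list medians and the dashed line is the median of all tested genes (0.005). The members (median 0.79) lie between the 5 lists, whose medians are 0.02 to 0.12, and the proliferation genes (median 2.02).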

How the data were processed

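Total RNA of 6 MC3T3-E1 samples, 3 per group, was sequenced. The FPKM values are as deposited by the authors, who divided reads by gene length and an effective library size. The table names no unit. Each value times the listed gene length is a whole multiple of 1 step per sample (100% of values above 0, tolerance 0.01), which also recovers the reads. That alone holds for any reads divided by length and 1 constant per sample. FPKM was identified because the step, read as FPKM, gives effective library sizes close to the recovered reads. They were 18260074 to 21790540, beside 18399861 to 22111790 recovered reads. The gene length in base pairs is the authors' own. Bowtie 0.12.2 and the builds mm8 and mm9 are named in the submitters' processing notes, whereas the coordinates of all 8 genes equal those of GENCODE M21 (GRCm38). The counting tool is not given in the sources used here. The authors' test was DESeq2. No further sample columns were present (0). The dose and time come from the study's text, not from the labels.

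Groups were compared with limma 3.58.1 (R 4.3.3) with an intensity trend on log2(FPKM + 1), without a replicate block. Genes entered at a mean FPKM of 0.5 or more (12681 genes), and 0.05 was the threshold of the Benjamini-Hochberg adjusted p-value. The reported fit was planned for FPKM values and uses no count model, although the recovered reads would have allowed one. Ratios were tested by exact permutation over samples. Alternatives were voom on the recovered reads, a GC correction (spline with 5 degrees of freedom), the replicate block, total-read scaling, a pseudocount of 0.1, no filter or a filter of 10 reads in every sample, and leaving out each sample. The fit was tested on simulated data. No pair of samples agreed within sampling noise: the lowest median chi-square per gene was 1.14. It was 1.14 to 1.24 between metformin samples and 2.81 to 13.05 between controls, so that the controls were further apart. The fit uses a common variance per gene for both groups. At these depths 3 reads are 1.36e-05% to 1.63e-05% of a sample, counting error only. Near-identical transcripts were found with BLAST+ (at least 95% identity over 200 bases). For Gcat and Ddit3, each with 2 identifiers, the one with reads was used.

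The members and lists were chosen with earlier results of these data known. Named are all members, the 2 largest rises and falls among called genes of each list, and Shmt1, Mthfd2l, Aldh1l1 and Slc25a32. Other genes given were chosen after their values were seen. Some genes of the lists are not reported by name here.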

Additional observations from a re-analysis of the deposited data

How the results depend on the processing

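Under all 14 alternatives 7 members were called higher, 0 were called lower, and Phgdh was not called (log2 fold change 0.09 to 0.31, adjusted p-value of 0.0794 to 0.494). The genes around them depended more on the processing. With the replicate block 4 pathway genes were higher and 0 were lower, and over all genes 1161 were higher and 698 were lower. The pathway calls lost with the block were those of Shmt1, Slc1a4, Sfxn2, Mat2b and Impdh2 (adjusted p-value of 0.0788 to 0.137 by limma). With the GC correction 8 pathway genes and 2434 of all genes were lower, and with the replicate block and GC correction 5 and 1890. Leaving out each sample gave 4 to 12 pathway genes higher and 0 to 6 lower, and over all genes 926 to 2974 higher and 486 to 2587 lower, with the most calls without control replicate 1. The log2 fold change of Mthfd2l ranged from -0.0086 (without control replicate 3) to 0.12 over these fits, and that of Slc25a32 from -0.048 (without control replicate 3), with -0.012 without metformin replicate 3, to 0.12. The cause of these changes was not tested.

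Deviations of same-numbered samples from their group means were not shared (correlations across genes of -0.053, 0.00027 and -0.055), so that the replicate block rests on a number only.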

Other observations

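Mtap, the enzyme that returns methylthioadenosine from polyamine synthesis to methionine and adenine, was listed at 0 in all 6 samples, which at 3 reads is at most 1.36e-05% to 1.63e-05% of a library. The table places it on chromosome 4 (89137122 to 89181081). The next 3 protein-coding genes on that chromosome, Cdkn2a, Cdkn2b and Dmrta1, were also listed at 0 in all 6 samples. The nearest protein-coding genes with at least 100 reads in every sample were Klhl9 before them, with 1269 to 1916 reads, and Caap1 after them, with 110 to 149 reads. Of the 31 protein-coding genes between Klhl9 and Caap1, 22 were listed at 0 throughout and none exceeded 7 reads in a sample. These genes were chosen after their values were seen. For comparison, 29731 of all 54532 genes, not only protein-coding ones, were listed at 0 in all 6 samples.

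Other enzymes of the lists that were listed at 0 in all samples were Tdh, which cleaves threonine, Dmgdh, which demethylates dimethylglycine, and Bhmt and Bhmt2, which methylate homocysteine from betaine. Cbs, which starts transsulfuration, was below the filter, with at most 17 reads in a sample.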
